A study of Mus musculus with 4 samples.

Results

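The transcripts of 7 subunits of the GABA-A receptor, Gabra2, Gabra3, Gabra4, Gabra5, Gabrb1, Gabrb2 and Gabrd, were examined in the hippocampus of mice after tibial fracture. They were taken by gene symbol, as subunits of the receptor that general anesthetics act on, from a table of 29300 genes, and each was found exactly once. Hippocampal RNA was taken on day 1 post-surgery from 4 male mice of the C57BL/6 strain, 2 in each group, whose ages were 7 to 8 months. Control (sham) mice received isoflurane anesthesia and tramadol analgesia without an operation, and surgery mice received the same anesthesia and analgesia followed by an open tibial shaft fracture with intramedullary nailing. Because both groups were anesthetized, the comparison is of the fracture operation added to anesthesia, and no anesthesia-free mice were analysed here.

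GABA-A receptors are pentameric chloride channels that open when GABA, the main inhibitory transmitter of the adult brain, binds between an alpha and a beta subunit. The alpha subunit sets much of a receptor's pharmacology and its place on the neuron, beta subunits carry contact sites for several anesthetics, and a gamma or a delta subunit completes most receptors. Many receptors gather under inhibitory synapses through gephyrin, while receptors with delta, and many with alpha5, lie outside synapses and carry tonic inhibition. In the hippocampus alpha5 is abundant in pyramidal cells and is known for its part in memory, and alpha4 with delta is typical of dentate granule cells.

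Total counts ran from 15763432 to 18573386 per mouse, and 10735 to 13224 of them fell on the 7 subunits. Mice of the same group differed beyond counting noise. Markers of dentate granule cells (8), CA1 (5) and CA3 (5) pyramidal cells were all detected, as the label of hippocampus implies. Mitochondrially encoded coding transcripts took 2.52% to 2.82% of the counts in control mice and 4.44% to 4.48% in surgery mice, and the summed level of 6 choroid plexus markers differed widely within the control group (127 and 5420 CPM, the read count normalized to a common library size). In the surgery mice that level was 2030 and 3450 CPM. Across the 17120 genes tested that have a GC content, the log2 fold change (surgery over control) fell as the GC content of the transcript rose (Spearman's rho -0.65, a description across genes, which are not independent and share the 4 libraries). Of the 7 subunits, 6 have a transcript GC content under the median of all genes tested (49.9%).

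Of the 7 subunits, 4 were higher in surgery mice than in control mice, namely Gabra2, Gabrb1, Gabra4 and Gabrb2, and none was lower (edgeR's quasi-likelihood test, adjusted p under 0.05). Gabra2 alone was also past the fold change of 1.5 used for differentially expressed genes (DEGs). Over all 17144 genes tested, 13.1% were called higher, 12.8% were called lower and 9.01% were DEGs in either direction. No subunit was lower at an unadjusted p under 0.05 either, and DESeq2 called 3 subunits higher and 0 lower. The median log2 fold change of the 7 subunits was 0.22, against 0.01 over all genes tested. After correction for the length and GC content of transcripts, fitted as a trend in each mouse, edgeR called 0 of the 7 in either direction, with 1 (Gabra5, lower) at an unadjusted p under 0.05, and 1.55% of all genes were called (95 higher and 170 lower, against 2249 and 2201 without the correction). With the replicate number as a block beside this correction, 1 subunit was called higher (Gabra2) and 1 lower (Gabra5). In bulk tissue, fewer cells of a type and less RNA per cell cannot be told apart.

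The genes lie in the receptor clusters of the mouse genome (GRCm38, mm10), apart from Gabrd, which lies on chromosome 4 far from the rho subunit genes Gabrr1 and Gabrr2. The stretches of 250 bases before the RefSeq transcription starts (GRCm38.p6) are shown for Gabra2, which had the largest difference, for Gabrb2, which lay closest to the threshold, and for Gabra5, which did not pass it. Each is given on the strand of its gene, 5′ to 3′, at chr5:71095850-71096099 (Gabra2, minus strand), chr11:42420190-42420439 (Gabrb2, plus strand, the first of 3 starts) and chr7:57510060-57510309 (Gabra5, minus strand). None overlaps an annotated exon. Capitals mark matches to a GC box (GGGCGG or CCGCCC) or a TATA box (TATAAA or TTTATA).
Gabra2: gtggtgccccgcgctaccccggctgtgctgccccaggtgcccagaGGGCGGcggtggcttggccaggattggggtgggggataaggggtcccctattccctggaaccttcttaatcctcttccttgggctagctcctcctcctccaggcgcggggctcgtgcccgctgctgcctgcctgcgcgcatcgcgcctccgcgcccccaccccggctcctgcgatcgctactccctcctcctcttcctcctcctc
Gabrb2: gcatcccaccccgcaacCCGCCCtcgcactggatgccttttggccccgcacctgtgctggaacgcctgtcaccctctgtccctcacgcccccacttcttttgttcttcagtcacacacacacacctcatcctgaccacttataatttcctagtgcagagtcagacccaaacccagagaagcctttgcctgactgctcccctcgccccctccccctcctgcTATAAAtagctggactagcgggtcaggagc
Gabra5: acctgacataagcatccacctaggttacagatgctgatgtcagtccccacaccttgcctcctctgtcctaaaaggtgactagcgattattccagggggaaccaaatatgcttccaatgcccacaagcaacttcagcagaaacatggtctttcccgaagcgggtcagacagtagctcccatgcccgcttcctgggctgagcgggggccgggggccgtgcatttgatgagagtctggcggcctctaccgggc

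These upstream stretches differ from the transcripts they precede. The Gabra2 stretch has a GC content of 70.0% with 18 CpG dinucleotides, whereas its longest coding transcript has a GC content of 38.4%. The Gabrb2 stretch has 58.8% and the Gabra5 stretch 56.4%, against a median of 52.4% over all 32851 promoter windows of RefSeq. A GC box occurs in Gabra2 and Gabrb2 and a TATA box in Gabrb2 only among the 3, starting 30 bases before the start, and no match overlapped another. On both strands, 32.7% of all windows of this length hold the GC box letters and 12.4% the TATA box letters. The short site of the cAMP response element (TGACG) and the core of the site of NRF-1 (CGCATGCG), a regulator of respiratory genes, were also searched for and occur in 17.8% and 1.55% of all windows. Neither occurs in the 3 stretches shown, and the NRF-1 core was found in 1 of the 10 windows of the 6 subunits that have one, at the second start of Gabrb1.

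**Figure D1:**
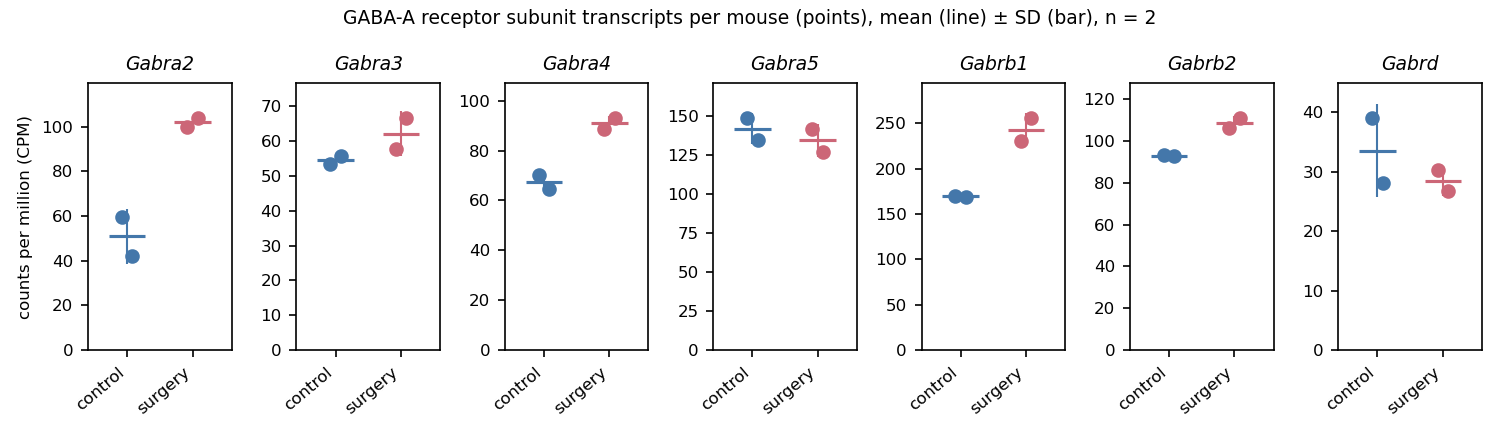
TMM-normalized counts (y axis, CPM from 0, a separate scale per gene) of each GABA-A receptor subunit in the 2 control mice and the 2 surgery mice; points are mice, horizontal lines means and vertical bars SD. Both surgery mice lie above both control mice for Gabra2, Gabra3, Gabra4, Gabrb1 and Gabrb2, and the groups overlap for Gabra5 and Gabrd. Over all genes tested, the groups did not overlap for 65.5%.

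Among the alpha subunits, Gabra2 had the largest difference. It encodes alpha2, which is enriched at the axon initial segment and at synapses on principal cells. Gabra2 (chromosome 5, 70957597 to 71095849, minus strand, 10 exons) had 59.7 and 42.1 CPM in the control mice and 100 and 104 CPM in the surgery mice. Both surgery mice were above both control mice, which differed from each other more than the surgery mice did. Its mean of 50.9 ± 12.5 CPM (SD, n = 2) rose to 102 ± 2.34 CPM (SD, n = 2), which is 2.00-fold (95% confidence interval 1.55 to 2.59, edgeR adjusted p = 0.0071). Its transcript has a 3′ untranslated region of 4205 nt with a GC content of 35.8%. Among the 1014 tested genes within 2 percentage points of its GC content, the median was 0.66, below the 1.00 of Gabra2, and 55.0% were called higher. With the length and GC trends removed, the log2 fold change of Gabra2 was 0.30 (95% confidence interval -0.02 to 0.61, edgeR adjusted p = 0.25), and over the 13 alternatives the adjusted p ran from 1.1e-08 to 0.25.

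Gabra4, which encodes alpha4, the usual partner of delta in dentate granule cells, also rose. It lies on chromosome 5 at 71569749 to 71658308 (minus strand, 9 exons). The control mice had 70.0 and 64.4 CPM and the surgery mice 88.6 and 93.1 CPM, so the groups did not overlap. The means were 67.2 ± 3.93 and 90.8 ± 3.17 CPM (SD, n = 2), with a log2 fold change of 0.43 (SE 0.08, edgeR adjusted p = 0.0097). Genes within 2 percentage points of its GC content (42.2%) had a median log2 fold change of 0.42, with 40.1% called higher. With the trends removed, its log2 fold change was 0.01 (95% confidence interval -0.16 to 0.18, edgeR adjusted p = 0.96, and 0.0009 to 0.96 over the alternatives).

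The other 2 alpha subunits described did not pass the test. Gabra3 encodes alpha3, which is found in many monoaminergic and reticular neurons and at lower levels in the hippocampus. It lies on chromosome X at 72432681 to 72656848 (minus strand) and had 53.5 and 55.7 CPM in the control mice and 57.7 and 66.7 CPM in the surgery mice. The groups did not overlap, which also holds for 65.5% of all genes tested, and the log2 fold change was 0.19 (SE 0.09, edgeR adjusted p = 0.18). Genes within 2 percentage points of its GC content (43.1%) had a median of 0.36, above the value of Gabra3. After correction for length and GC content, the log2 fold change turned to -0.19 (edgeR adjusted p = 0.26, and 0.091 to 0.63 over the alternatives).

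Gabra5 encodes alpha5 and lies on chromosome 7 at 57407672 to 57510059 (minus strand). It had 149 and 135 CPM in the control mice and 142 and 127 CPM in the surgery mice. The groups overlapped, and the 2 mice of each group differed by more than the distance between the means of 142 ± 9.98 and 134 ± 11 CPM (SD, n = 2). The log2 fold change was -0.08 (95% confidence interval -0.28 to 0.12, edgeR adjusted p = 0.53). Among the 3598 genes within 2 percentage points of its GC content (47.1%), the median was 0.14 and 10.7% were called higher. Corrected for both trends, it was -0.23 (95% confidence interval -0.46 to -0.01, unadjusted p = 0.043, edgeR adjusted p = 0.21, and 0.028 to 0.97 over the alternatives). Of its exonic bases, 148 (4.98%) overlap an antisense gene, Gm9962, and whether the counting used strand is not given in the sources used here.

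Both beta subunits described were called higher, Gabrb1 with the larger difference. Gabrb1 encodes beta1 and lies head to head with Gabra4 on chromosome 5 (71658113 to 72149037, plus strand), with 46 exonic bases shared by the 2 genes on opposite strands. Its level was nearly the same in both control mice, 170 and 169 CPM, and was 230 and 256 CPM in the surgery mice. The distance between the groups was larger than the spread in either. The means were 170 ± 0.738 and 243 ± 18.5 CPM (SD, n = 2), with a log2 fold change of 0.52 (SE 0.07, edgeR adjusted p = 0.0057). Its 3′ untranslated region, with 12228 nt, is the longest of the 7. Genes within 2 percentage points of its GC content (40.9%) had a median log2 fold change of 0.51, with 46.8% called higher. With the trends removed, its log2 fold change was 0.01 (95% confidence interval -0.14 to 0.17, edgeR adjusted p = 0.93, and 1.5e-07 to 0.93 over the alternatives).

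Gabrb2 encodes beta2 and lies on chromosome 11 at 42419757 to 42629028 (plus strand). It had 93.0 and 92.7 CPM in the control mice and 106 and 111 CPM in the surgery mice. The groups did not overlap. The log2 fold change was small, 0.22 (SE 0.06, edgeR adjusted p = 0.047), and it stayed at 0.19 to 0.24 when each mouse in turn was left out, while the call was lost (edgeR adjusted p from 0.085 to 0.18). In those fits 1 group holds a single mouse, which is assumed to vary like the 2 of the other group. The median over the 2967 genes within 2 percentage points of its GC content (44%) was 0.30. After correction for length and GC content, it turned to -0.10 (edgeR adjusted p = 0.44, and 0.027 to 0.44 over the alternatives).

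Gabrd encodes delta, the subunit of extrasynaptic receptors with high affinity for GABA, and was the most GC-rich of the 7 (56.8%). It lies on chromosome 4 at 155384980 to 155398112 (minus strand). The control mice had 39.1 and 28.1 CPM and the surgery mice 30.3 and 26.7 CPM. The groups overlapped, since the lower control mouse lay between the surgery mice. The log2 fold change was -0.23 (95% confidence interval -0.63 to 0.16, edgeR adjusted p = 0.34), close to the median of -0.27 over the 2877 genes within 2 percentage points of its GC content. The value depended on both control mice, since it was 0.01 without control replicate 1 and -0.46 without control replicate 2 (edgeR adjusted p = 0.96 and 0.059). Corrected for both trends, the log2 fold change was 0.00 on rounding (95% confidence interval -0.43 to 0.43, edgeR adjusted p = 0.99, and 0.059 to 0.99 over the alternatives).

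**Figure D2:**
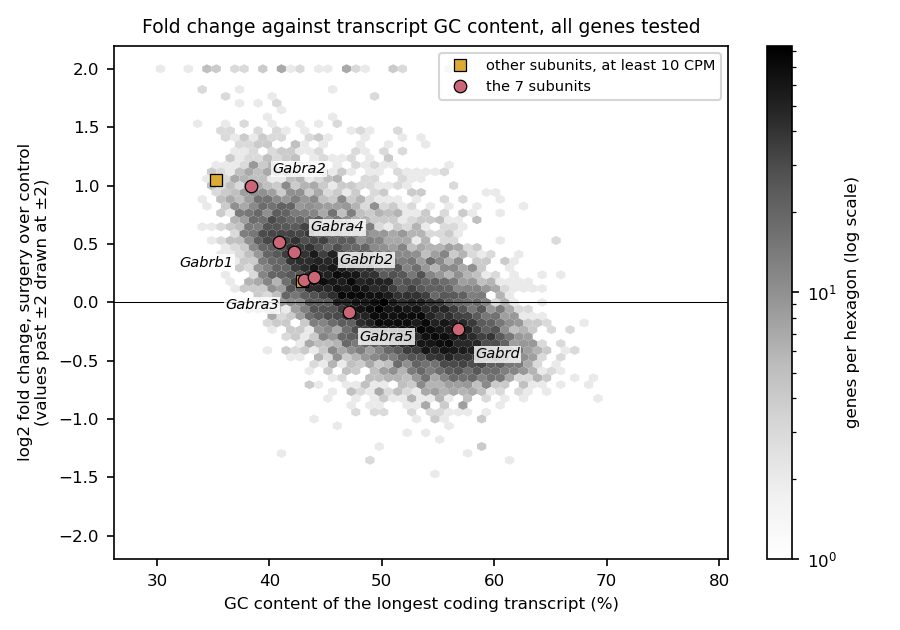
Log2 fold change of surgery over control mice (y axis) against the GC content of the longest coding transcript in percent (x axis) for all genes tested, with shade giving the number of genes per hexagon on a log scale; circles are the 7 subunits and squares the other subunits of at least 10 CPM. The subunits run down the cloud of all genes, from Gabra2 at 38.4% and 1.00 to Gabrd at 56.8% and -0.23.

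Apart from Gabra3 and Gabrb2, which changed places, the order of the 7 fold changes followed their GC contents (Spearman's rho -0.96, n = 7 genes, as a description). Gabra2 and Gabra5 lay farthest from the median of genes of like GC content, Gabra2 above it (1.00 against 0.66) and Gabra5 below it (-0.08 against 0.14). The plot of fold change against GC content shows the other 5 within the dense part of the cloud. With the trends of each library removed, the log2 fold changes of the 7 lay between -0.23 (Gabra5) and 0.30 (Gabra2).

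Levels were compared between subunits only as CPM per kb of exon. In the control mice Gabra5 was the most abundant of the 7, at 47.8 ± 3.36 CPM per kb (SD, n = 2), followed by Gabrb2 at 14.6 ± 0.0296, Gabra3 at 13.9 ± 0.411 and Gabrb1 at 12.3 ± 0.0533 CPM per kb. Gabrd at 11.7 ± 2.69 and Gabra4 at 11.1 ± 0.647 followed, and Gabra2 was lowest at 6.66 ± 1.63 CPM per kb. Gabrd could not be placed against Gabrb1 or Gabra4, because the ranges of its 2 control mice took in theirs, while the ranges of the other neighbours were apart. In the surgery mice Gabrd was lowest at 9.93 ± 0.892 and Gabra2 stood above it at 13.3 ± 0.306 CPM per kb. The order in the middle depends on the length used, since per kb of the longest coding transcript Gabra3 and Gabrb1 moved behind Gabrd and Gabra4.

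**Figure D3:**
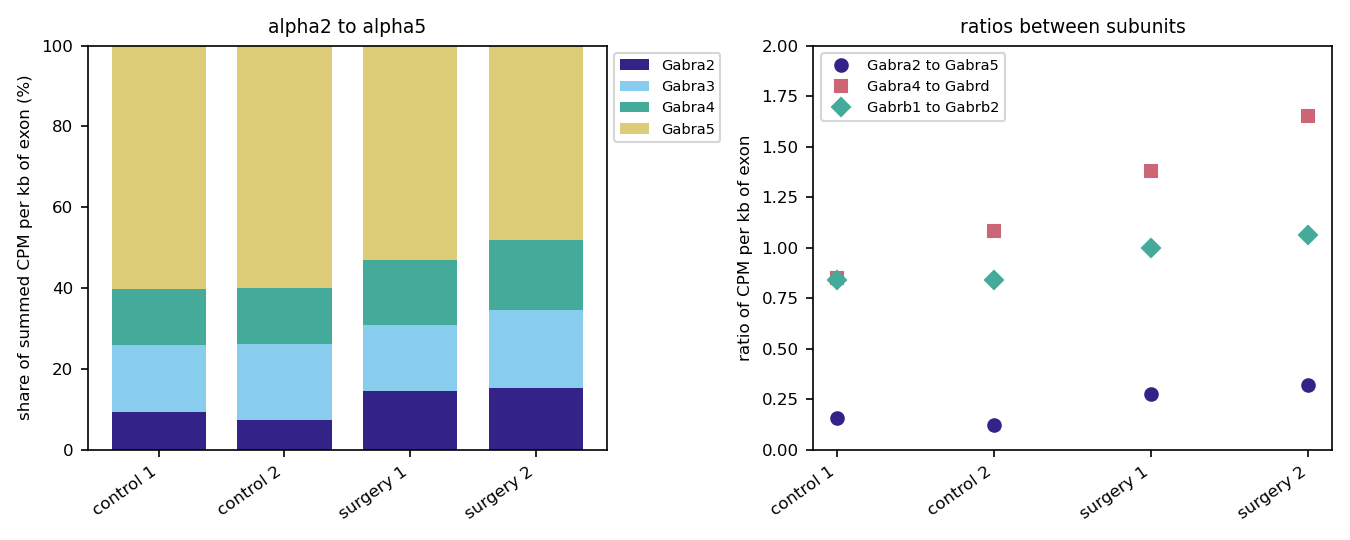
Left, share of each subunit in the summed CPM per kb of exon of alpha2 to alpha5 (y axis, percent), as one stacked bar per mouse, and right, the ratio of CPM per kb of exon between 3 pairs of subunits (y axis, linear) in each mouse. In the surgery mice the parts of Gabra2 (14.5% and 15.3%) are wider and those of Gabra5 (53.0% and 48.2%) narrower than in the control mice. The 3 ratios do not overlap between the groups. None of these values is corrected for length or GC content.

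Without correction for length and GC content, the make-up of the subunit transcripts also differed between the groups. Within the sum of alpha2 to alpha5, Gabra2 made up 9.41% and 7.27% in the control mice against 14.5% and 15.3% in the surgery mice. Gabra5 made up 60.2 ± 0.267% in the control mice but 50.6 ± 3.43% (SD, n = 2) in the surgery mice, without overlap, while its own level in CPM overlapped between groups. The share of Gabra4 was 13.9 ± 0.102% against 16.7 ± 0.815% (SD, n = 2), without overlap, and that of Gabra3 overlapped. In CPM, the groups did not overlap for 65.5% of all genes tested. With the length and GC trends removed, the log2 fold changes were 0.30 for Gabra2, -0.19 for Gabra3, 0.01 for Gabra4 and -0.23 for Gabra5.

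The ratio of Gabrb1 to Gabrb2 per kb was 0.841 and 0.838 in the control mice against 0.998 and 1.06 in the surgery mice. The ratio of Gabra4 to its partner Gabrd per kb was 0.847 and 1.08 in the control mice against 1.38 and 1.65 in the surgery mice. Neither ratio overlapped between the groups. These shares and ratios are descriptions, carry no test, and compare transcripts of different GC content within the same mouse. With the length and GC trends removed, the log2 fold changes were 0.01 for Gabrb1 and -0.10 for Gabrb2. They were 0.01 for Gabra4 and 0.00 on rounding for Gabrd.

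Of 9 other subunits of the GABA-A and GABA-rho receptors, 6 passed the filter on low counts. Of these 6, 1 (Gabrg1) was called higher and 0 lower by edgeR, with 0 lower at an unadjusted p under 0.05 and 0 by DESeq2. Over all genes tested, 13.1% were called higher and 12.8% lower. Gabrg1, encoding gamma1, had 11.1 and 10.9 CPM in control and 23.6 and 22 CPM in surgery mice (log2 fold change 1.05, SE 0.12, edgeR adjusted p = 0.0045). Its transcript had the lowest GC content of the subunits described (35.3%), and genes within 2 percentage points of it had a median of 0.93, with 58.5% called higher.

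Gabrg3, encoding gamma3, had 21.9 and 22.5 CPM in control and 26.1 and 24.2 CPM in surgery mice and did not pass the test (log2 fold change 0.18, SE 0.10, edgeR adjusted p = 0.23). With the trends removed, edgeR called 0 of the 6 in either direction, also at an unadjusted p under 0.05.

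The remaining subunits were near the limit of detection at this depth. Gabra6, the alpha subunit of cerebellar granule cells, had counts of 10 and 15 in control and 0 and 11 in surgery mice (edgeR adjusted p = 0.42). Gabrq had 13 and 22 counts against 21 and 30 (log2 fold change 0.65, edgeR adjusted p = 0.26), and Gabre had 4 and 12 against 12 and 11 (log2 fold change 0.63, edgeR adjusted p = 0.45). Gabrr2, a rho subunit of the retina, had 36 and 59 against 33 and 32 counts (log2 fold change -0.43, edgeR adjusted p = 0.37). Gabrp, Gabrr1 and Gabrr3 did not pass the filter on low counts.

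All 4 genes of the chromosome 5 cluster (Gabrg1, Gabra2, Gabra4 and Gabrb1, within 1.4 Mb) were called higher, against 13.1% of all genes tested. Among genes within 2 percentage points of their GC contents, the shares called higher were 58.5%, 55.0%, 40.1% and 46.8%, in the same order. With the trends removed and no replicate block, edgeR called 0 of them, also at an unadjusted p under 0.05. Of the 3 genes of the X cluster (Gabre, Gabra3 and Gabrq) edgeR called 0, also at an unadjusted p under 0.05, but Gabre and Gabrq, with 4 to 30 counts per mouse, had standard errors of 0.56 and 0.39 on the log2 scale. Transcript GC contents were 35.3% to 42.2% in the chromosome 5 cluster and 43.1% to 53.8% in the X cluster, and whether the clusters differ was not tested.

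**Figure D4:**
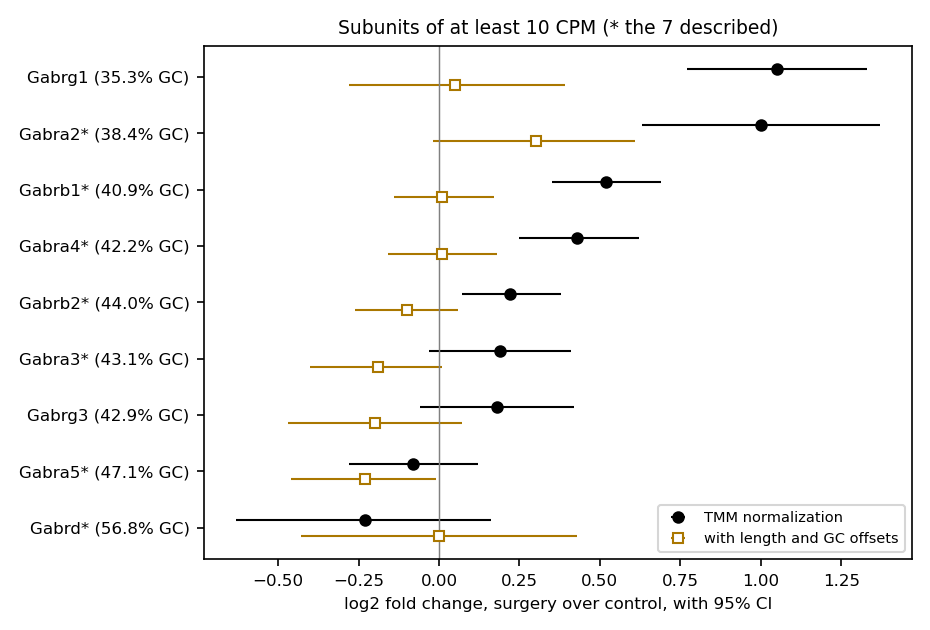
Log2 fold change of surgery over control mice with its 95% confidence interval (x axis) for 9 subunits of at least 10 CPM, ordered by fold change and labelled with transcript GC content, by TMM normalization (filled circles) and with length and GC offsets (open squares). Without offsets the values run from -0.23 (Gabrd) to 1.05 (Gabrg1), and with them from -0.23 (Gabra5) to 0.30 (Gabra2).

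Other genes of inhibitory transmission were examined by role, and 8 of 39 tested were called higher and 8 lower, where 13.1% and 12.8% of all genes were. After correction for length and GC content, edgeR called 0 of the 39, with 4 higher and 8 lower at an unadjusted p under 0.05. With the replicate number as a block beside this correction, 11 were called. Among 20 genes that anchor or traffic GABA-A receptors, 3 were higher and 5 lower, with a median log2 fold change of -0.13. Dmd, encoding dystrophin of inhibitory synapses, had 50.4 and 44.2 CPM in control and 77.3 and 72.0 CPM in surgery mice (0.66, edgeR adjusted p = 0.0059). Rdx, encoding radixin, which tethers alpha5 receptors outside synapses, had 65.0 and 65.2 against 90.7 and 90.1 CPM (0.47, edgeR adjusted p = 0.0057).

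Nlgn2 and Shisa7 had the largest falls of this list. Nlgn2, encoding neuroligin-2, the adhesion molecule of inhibitory synapses, had 405 and 421 CPM in control and 287 and 313 CPM in surgery mice (log2 fold change -0.46, edgeR adjusted p = 0.0061). Shisa7, encoding an accessory protein of GABA-A receptors, had 397 and 364 against 286 and 270 CPM (log2 fold change -0.45, edgeR adjusted p = 0.0068). Gphn, encoding gephyrin, was not called (log2 fold change -0.07, edgeR adjusted p = 0.57) and, like Slc12a2 below, is named after its values were seen. Transcript GC contents are 41.5% for Dmd, 44.1% for Rdx, 60.7% for Nlgn2 and 56.5% for Shisa7. With the correction the log2 fold changes were 0.20 for Dmd, 0.15 for Rdx, -0.15 for Nlgn2 and -0.24 for Shisa7 (edgeR adjusted p from 0.19 to 0.30).

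Of the 9 genes of GABA synthesis, packaging, uptake and breakdown, 2 were higher and 1 lower, where 13.1% and 12.8% of all genes tested were. Gad2, encoding the GABA-forming enzyme GAD65, had 147 and 139 CPM in control and 193 and 164 CPM in surgery mice (log2 fold change 0.32, edgeR adjusted p = 0.044), and Aldh5a1, which clears the breakdown product of GABA, rose by 0.28 on the log2 scale (edgeR adjusted p = 0.025). Slc32a1, encoding the vesicular GABA transporter, had 76.4 and 77.3 against 59.8 and 53.3 CPM (log2 fold change -0.44, edgeR adjusted p = 0.012). With the correction the log2 fold changes were 0.00 for Gad2 (GC content 44.1%), 0.18 for Aldh5a1 (48.3%) and -0.11 for Slc32a1 (61.9%), and edgeR called none of them (Aldh5a1 had the lowest adjusted p, 0.21). The largest differences of the list were not called, and both genes were high only in surgery replicate 2. They were those of the transporter genes Slc6a13, with 5.57 and 5.74 CPM in control and 6.90 and 34.9 CPM in surgery mice (log2 fold change 1.89, edgeR adjusted p = 0.089, and 0.00026 to 0.48 over the alternatives), and Slc6a12, with 2.15 and 1.09 against 1.19 and 8.59 CPM (log2 fold change 1.62, edgeR adjusted p = 0.21, and 0.0034 to 0.65 over the alternatives), both named after their values were seen.

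Slc12a5, encoding the chloride exporter KCC2 that keeps GABA inhibitory, had 840 and 825 CPM in control and 610 and 631 CPM in surgery mice (log2 fold change -0.42, edgeR adjusted p = 0.0053). The chloride importer gene Slc12a2 was not called (57.5 and 80.7 against 91.4 and 89.7 CPM, edgeR adjusted p = 0.10). Of 5 GABA-B receptor genes, 1 was higher and 1 lower, where 13.1% and 12.8% of all genes tested were. Kctd12, an auxiliary subunit, was higher (log2 fold change 0.58, edgeR adjusted p = 0.025) and Gabbr2, a principal subunit, was lower (-0.42, edgeR adjusted p = 0.0067). Of the 3 tested genes of the glycine receptor, a related chloride channel, Glra3 (1.25, edgeR adjusted p = 0.013) and Glrb (0.72, edgeR adjusted p = 0.0045) were higher and none was lower. With the correction the log2 fold changes were -0.16 for Slc12a5 (GC content 58.3%), 0.32 for Kctd12 (45.2%), -0.21 for Gabbr2 (56.0%), 0.24 for Glra3 (35.2%) and 0.20 for Glrb (40.8%), and edgeR called none of them (adjusted p from 0.17 to 0.63).

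**Figure D5:**
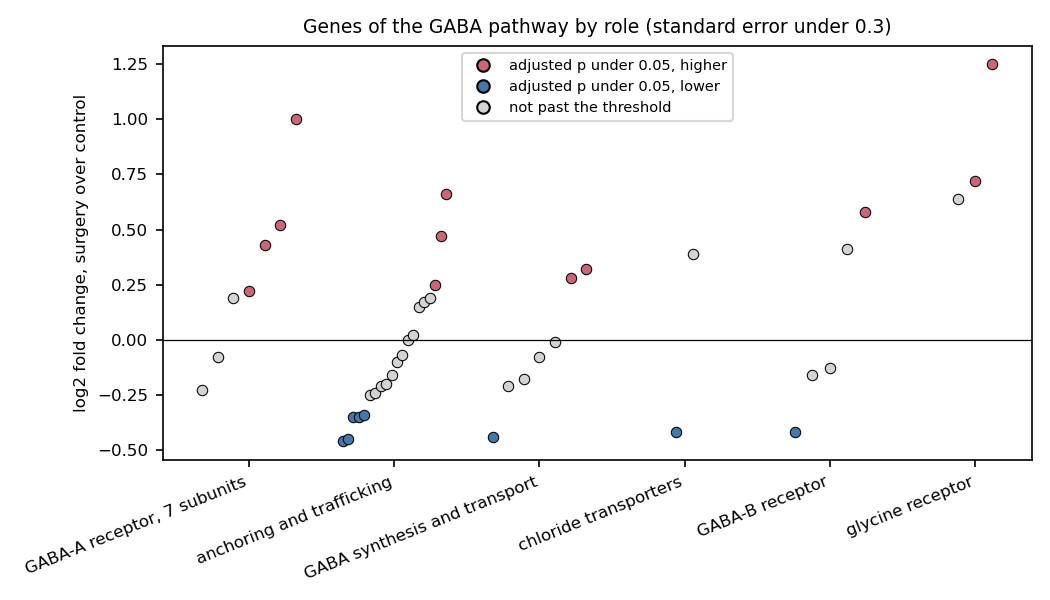
Log2 fold change of surgery over control mice (y axis) for the 7 subunits and for the other tested genes of inhibitory transmission by role (x axis), leaving out 2 genes (Slc6a12 and Slc6a13) with a standard error above 0.3; each point is a gene, coloured by its call. Every role with at least 5 tested genes other than the receptor itself has called genes on both sides of 0. The 2 smaller roles do not. Of 3 tested glycine receptor genes 2 were higher and 0 lower, and of 2 chloride transporter genes 0 were higher and 1 lower.

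Marker lists of hippocampal cells were examined beside the subunits. Of 5 CA1 pyramidal markers 4 were called lower (12.8% of all genes tested were, and 13.1% were called higher). Their summed level was 940 to 943 CPM in control and 671 to 679 CPM in surgery mice. With the trends removed, edgeR called 0 of these 5, with 4 lower at an unadjusted p under 0.05 and a median log2 fold change of -0.36. Of 5 CA3 pyramidal markers 1 was higher and 1 lower (summed 396 to 398 CPM in control and 395 to 412 CPM in surgery mice), and of 8 dentate granule markers 1 was higher and 0 were lower by edgeR, with 3 lower at an unadjusted p under 0.05 and 2 by DESeq2 (573 to 675 against 633 to 667 CPM). Of 10 interneuron markers 1 was higher and 2 were lower (565 to 599 against 450 to 518 CPM).

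Of 8 pan-neuronal markers 1 was higher and 2 were lower, where 13.1% and 12.8% of all genes tested were. Their summed level overlapped (6010 to 6140 CPM in control and 6020 to 6240 CPM in surgery mice). Of 7 astrocyte markers 2 were higher and 2 lower, with 2430 to 2480 CPM in control and 2140 to 2220 CPM in surgery mice. Of 6 thalamic markers, of a region rich in Gabra4 and Gabrd, edgeR and DESeq2 called 0, with 1 higher at an unadjusted p under 0.05 (113 to 120 against 127 to 136 CPM). Of 6 oligodendrocyte markers edgeR and DESeq2 called 0, with 0 at an unadjusted p under 0.05, and their summed level was 6180 and 5330 CPM in control and 6080 and 3930 CPM in surgery mice, lowest in surgery replicate 2. Of 6 microglial markers 1 was higher (285 to 294 CPM in control and 285 to 299 CPM in surgery mice). Of 5 endothelial markers 1 was higher (183 to 189 against 186 to 239 CPM). Of 6 striatal markers edgeR and DESeq2 called 0, with 0 at an unadjusted p under 0.05. With the trends removed, 1 marker of these lists was called, a pan-neuronal one, higher. No marker of these lists was at 0 in every mouse, and the part of cell composition in the subunit values was not tested.

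The genes nearest to each subunit in their pattern over the 4 mice were taken from 15513 genes by the root mean square difference in centred log2 CPM. They were Zfp950 and Chmp4c for Gabra2 (0.026 and 0.034), Dap and Scn2a for Gabra3 (0.007 and 0.011), Stx7 and Psme4 for Gabra4 (0.008 and 0.009), and Lman2l and Pcdhb17 for Gabra5 (0.005 and 0.009). For Gabrb1 they were Gm20342 and Ppp2r3c (0.01 and 0.011), for Gabrb2 Tm9sf2 and Virma (0.006 and 0.008), and for Gabrd Mcm5 and Gpr55 (0.021 and 0.026). No subunit was among the nearest genes of another, and with 4 mice such likeness is a description.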

How the data were processed

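RNA-seq was performed on hippocampal tissue of 4 mice, 2 in each group, as the labels assign them. The authors enriched poly(A) RNA, used HISAT to map the paired-end reads to mm10, and deposited counts of reads per gene without normalization. The submitters' processing notes list HISAT2 2.1.0, Bowtie2 2.2.3, TopHat2 and HTSeq 0.6.0 without saying what each did, and the use of strand in counting is not given in the sources used here. The deposited table also holds the authors' own comparison (mean, fold change and p-values), which was not used.

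The test was that of edgeR 4.0.16 in R 4.3.3 (filterByExpr with a minimum count of 10, TMM, glmQLFit and glmQLFTest with group as the only term). P-values were adjusted over all genes tested by the Benjamini-Hochberg method, and genes were called at an adjusted p under 0.05. DEGs in addition had to reach 1.5-fold or stay under 0.67-fold. Standard errors were derived from the F statistic. The spread of 2 mice per group is estimated jointly over genes. Chi-square per degree of freedom between replicates was 12.3 and 7.77 in control and surgery mice. TMM factors ran from 0.982 to 1.02, and the median SE over all genes tested was 0.14 on the log2 scale.

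Length and GC trends of each library were fitted with mgcv 1.9.3 (basis size 8) on the longest coding transcript of GENCODE M21 (the longest of any kind where a gene has none) and entered as offsets. The other alternatives were RLE size factors, library totals only, other filters, DESeq2 1.42.0, the replicate number as a block, thinned counts and leaving out each mouse. The main edgeR fit, the replicate block, DESeq2 and the length and GC offsets were each run on simulated data. The block and offsets together and the other alternatives were not. Gene coordinates come from the deposited file, and CPM per kb uses the union of exons in GENCODE. Promoter windows are from RefSeq, in which 15 of the 16 subunit genes matched by symbol.

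Some subunits of the receptor are not reported here. The subunits, the other gene lists and the tests were chosen with earlier results of these data known. The genes named are the 7 subunits, the other subunits listed, up to 4 called genes per pathway list with the largest change, and the 2 genes of at least 1 CPM nearest in pattern to each subunit.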

Additional observations from a re-analysis of the deposited data

How the results depend on the processing

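The counts of the 7 subunits called moved by more than 1.5 times only where length and GC trends were removed. With length and GC offsets 0 of the 7 subunits were called higher, 0 were DEGs, 0 other subunits were called (1 without offsets) and 0 other GABA pathway genes were called (16 without). The cause was not tested beyond the construction of the offsets. With the replicate block and these offsets together, 1 subunit was called higher (Gabra2, log2 fold change 0.31) and 1 lower (Gabra5, -0.24), 0 were DEGs, 0 other subunits were called and 11 other GABA pathway genes were called. The replicate block without offsets left the counts at 4 higher, 0 lower, 1 DEG and 1 other subunit, and called 23 other GABA pathway genes. The replicate numbers were not shown to pair the mice, since the 2 pairs had a correlation of 0.224 between their replicate differences.

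Of 91 values (7 subunits under 13 alternatives), 70 kept their direction and side of the threshold, 13 lost a call with the same sign, 1 gained a call, and 7 changed sign, among which Gabrb2 also lost its call under both fits with offsets. The sign changed for Gabra3 (-0.19 with the offsets and -0.19 with block and offsets), Gabrb2 (-0.10 and -0.10) and, with block and offsets, Gabrd (0.01). Leaving out 1 mouse gave -0.18 to 0.01 for Gabra5, reversed without surgery replicate 2, and -0.46 to 0.01 for Gabrd, reversed without control replicate 1. The count of other subunits called was 1 to 2, with Gabra6 called lower without surgery replicate 2, against a lone surgery mouse with 0 counts. The values were 0.77 to 1.27 for Gabra2, 0.08 to 0.27 for Gabra3, 0.37 to 0.49 for Gabra4, 0.44 to 0.58 for Gabrb1 and 0.19 to 0.24 for Gabrb2. Gabrb2 lost its call under 8 alternatives that kept its sign (RLE, no filter, DESeq2, thinned counts and each mouse left out), Gabra4 and Gabrb1 only with the offsets, and Gabra2 only with the offsets without the block. Over all genes, totals-only scaling raised the share of higher calls from 50.5% to 59.4%, and without the low-count filter 2665 genes were called in place of 4450. With the offsets 265 genes were called, 35.8% of them higher, and 2295 with block and offsets.

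With 2 mice per group, differences inside the confidence intervals of Gabrd (0.645 to 1.12 on the fold scale) and Gabra5 (0.822 to 1.09) could not be told from no difference. The 4 least abundant tested subunits had standard errors of at least 0.32 on the log2 scale.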
